A study of Homo sapiens with 12 samples.

Results

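The 37 genes described here encode enzymes that make, interconvert, salvage and clear nucleotides or that carry folate-bound carbon units. They were taken by symbol from the 2 deposited expression tables, each of 25369 rows, and all 37 were found in both. RNA sequencing was done on 2 human diffuse large B cell lymphoma cell lines, OCI-Ly7, of the germinal centre B cell-like kind, and TMD8, of the activated B cell-like kind. Both lines carried a guide RNA against PRMT5, the main enzyme for symmetric dimethylation of arginine, under a doxycycline-inducible promoter. Cells received 20 ng/ml doxycycline for 0, 3 or 6 days, and 2 libraries were made per day and line, which gives 6 groups and 12 libraries. Every group, day 0 included, carried the guide, and no line with another guide was analysed here, so an effect of doxycycline itself cannot be told apart from that of the guide. One passage of the labels names other days, and the days in the titles, characteristics and design of the samples were followed. The labels do not say whether the 2 libraries of a group came from separate cultures, so p-values measure only the spread between these libraries.

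Cells build purine rings stepwise on phosphoribosyl pyrophosphate (PRPP) up to inosine monophosphate (IMP), which is then turned into adenosine and guanosine monophosphate. Pyrimidine rings are made first and joined to PRPP afterwards, and ribonucleotide reductase turns ribonucleotides into the deoxynucleotides used for DNA. Folate carries the carbon units that the purine ring and thymidylate need, and salvage enzymes recover bases and nucleosides. Dividing B cells draw on all of these routes.

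The deposited values are FPKM (fragments per kilobase of transcript, scaled to the mapped fragments of a library), a level per transcript length, with a sum per library between 408131 and 455236 in OCI-Ly7 and between 397477 and 467844 in TMD8. Depth is unknown. A relative depth was estimated from the most common ratio, between libraries, of rows with very low FPKM, and was not measured. Against the first day 0 library of its line this estimate lay between 0.77 and 1.28 in OCI-Ly7 and between 0.54 and 1.17 in TMD8. PRMT5 itself, the target of the guide, had 37.9 and 46.9 FPKM at day 0, 29.3 and 32.1 at day 3, then 21.0 and 19.2 at day 6 in OCI-Ly7. The TMD8 libraries had 64.8 and 60.5 FPKM at day 0, 41.3 and 42.0 at day 3, then 49.6 and 54.7 at day 6. Its transcript fell in OCI-Ly7 at day 6 (log2 change -0.89, adjusted p = 0.0284, limma), against a log2 change of 0.10 in TMD8 (adjusted p = 0.201; on FPKM as given -0.26, adjusted p = 0.0262), and these changes differed (-0.98, adjusted p = 0.00311). A transcript level does not measure editing or protein. All 6 B cell markers had a mean of at least 1 FPKM in OCI-Ly7 and 5 of 6 did in TMD8. Of 6 germinal centre markers 4 had the higher mean in OCI-Ly7, namely BCL6 (49.4 FPKM in OCI-Ly7, 9.85 in TMD8), STAP1 (14.0 and 0.474), MME (8.71 and 0.00377) and MYBL1 (6.85 and 1.13). The other 2 were higher in TMD8: SERPINA9 was listed at 0 and LMO2 averaged 0.0546 FPKM in OCI-Ly7, against 8.54 and 23.4 FPKM in TMD8. Of 6 activated B cell-like markers IRF4 (77.3 FPKM in OCI-Ly7, 356.5 in TMD8), BATF (170.0 and 183) and CCND2 (0.0574 and 69.0) were higher in TMD8, and FOXP1 (16.1 and 5.22), IL16 (6.38 and 0.425) and PIM1 (57.8 and 28.3) in OCI-Ly7. The 2 tables were normalised separately, so these levels are set side by side as a description. No T, NK or myeloid marker averaged 1 FPKM in either line; of the stromal and epithelial markers EPCAM (4.90 FPKM) and COL1A1 (4.56 FPKM) did in OCI-Ly7 and CDH1 (14.7 FPKM) in TMD8.

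Libraries were put on a common scale before testing, since most genes moved together on FPKM as given. There the median log2 change of all tested genes at day 6 was -0.13 in OCI-Ly7 and -0.31 in TMD8. The 45S pre-ribosomal RNA row moved the other way, with 16130 and 20185 FPKM at day 6 against 11163 and 10374 FPKM at day 0 in OCI-Ly7, and 20280 and 17581 FPKM at day 6 against 5222 and 7950 FPKM at day 0 in TMD8. Each library was therefore divided by its median ratio to the line's other libraries, and the resulting values are called scaled FPKM here; the lines were scaled separately, so a level in one line is set beside the other only as a description. Changes are differences of log2(scaled FPKM + 1), so they are relative to the typical gene. All 37 genes averaged at least 1 FPKM in each line and entered the tests.

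By day 6 the 2 lines had moved apart in these genes. In OCI-Ly7 15 of the 37 fell and 0 rose, among them all 6 enzymes of purine synthesis up to IMP, the ribonucleotide reductase subunit RRM2, the nucleoside kinase DCK and the mitochondrial folate enzyme MTHFD1L. In TMD8 11 rose and 2 fell; NME1, DTYMK and DCTPP1 rose most, and CAD and CTPS2 fell. The 15 were 40.5% of the 37 genes, the 11 were 29.7% and the 2 were 5.41%. Among all genes tested, 8.05% were lower and 6.71% higher in OCI-Ly7 at day 6, and 13.5% were lower and 15.4% higher in TMD8. The median log2 change of the 37 genes was -0.30 in OCI-Ly7 (all tested genes 0.01) and 0.15 in TMD8 (all tested genes -0.00). The TMD8 median depended on the scaling, at -0.21 on FPKM as given (all tested genes -0.31) and -0.00 with every library set to an equal sum without ribosomal RNA, small RNA and histone rows (all tested genes -0.13). The OCI-Ly7 median was -0.45 on FPKM as given and -0.28 with an equal sum. None of the 37 rose in OCI-Ly7 at an unadjusted p under 0.05 either, while 22 were lower at that level. Of all 11016 genes, 4010 had such a p in either direction. Bulk RNA cannot tell fewer cells of a kind from less RNA per cell.

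The size of both counts rests on few libraries and, in TMD8, on the scaling. Over all genes, too, fewer passed at day 6 in each line with a library left out. Without 1 OCI-Ly7 library, whichever was left out, between 0 and 2 genes passed as lower there (2 without the first day 3 library, 0 without any of the others), while between 17 and 23 were lower at an unadjusted p under 0.05. The count of higher genes in TMD8 was 3 without the first and 4 without the second day 0 library. On FPKM as given, 13 genes were lower and 0 higher in OCI-Ly7 at day 6, with 9.39% lower and 1.98% higher among all genes, and all 13 also passed after scaling. In TMD8 the same values gave 3 higher and 15 lower, with 3.89% higher and 51.7% lower among all genes; the 3 were NME1, DTYMK and DCTPP1.

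**Figure D1:**
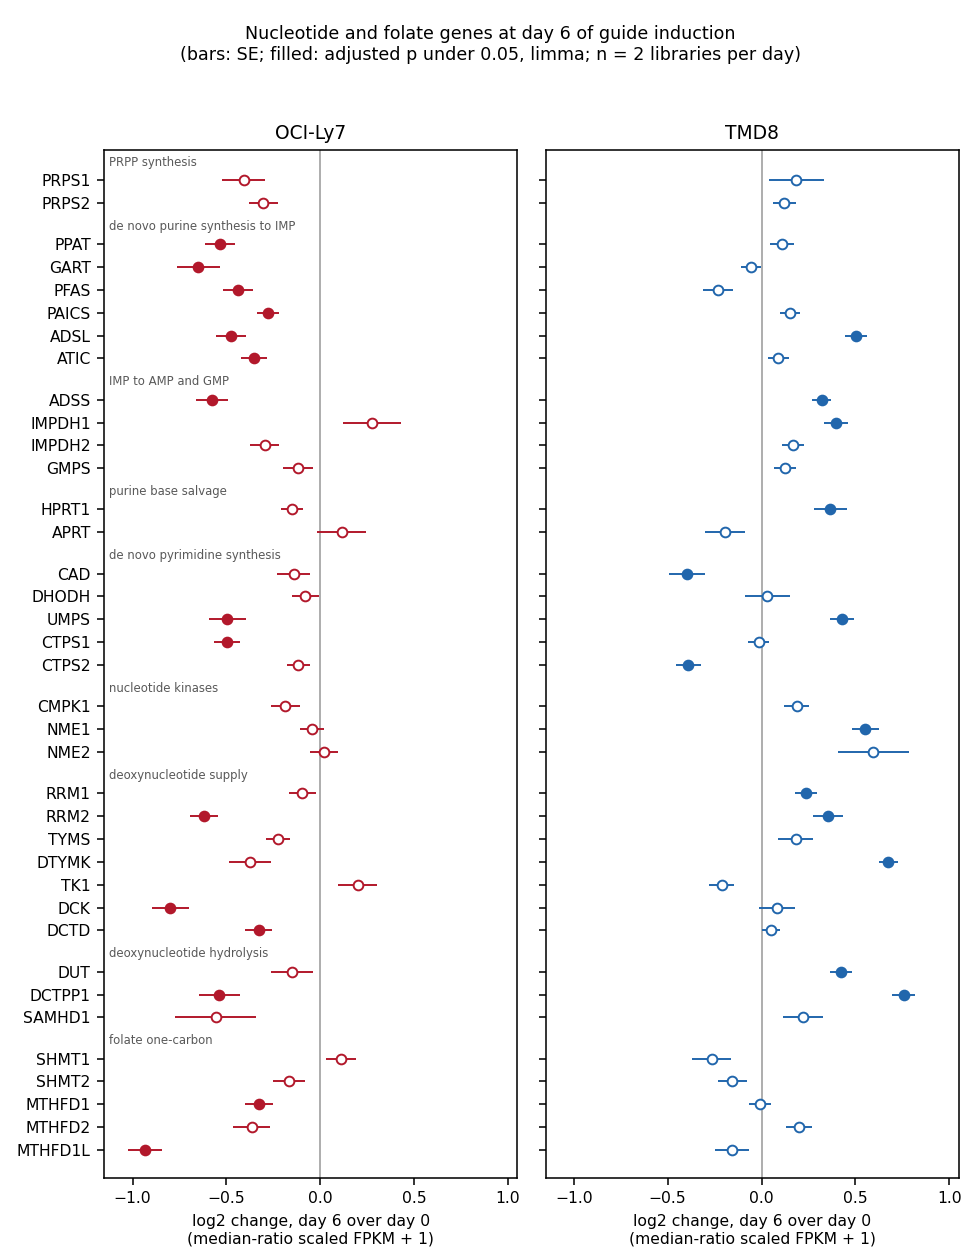
Log2 change at day 6 over day 0 (x axis, from scaled FPKM + 1) of the 37 genes (y axis, by role) in OCI-Ly7 (left) and TMD8 (right). Points are limma estimates from 2 libraries per day, bars are SE and filled points have an adjusted p under 0.05: 15 filled points lie left of 0 in OCI-Ly7, and in TMD8 11 lie right of 0 and 2 left of it.

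The difference between the lines was tested directly, as the day 6 change in OCI-Ly7 minus that in TMD8. It was negative and past the threshold for 24 of the 37 genes (64.9%), where 19.0% of the 9688 genes tested in both lines were, and positive for 2 (5.41%), where 14.1% were. The median difference of the 37 genes was -0.46, and that of all genes tested -0.02. By sign alone, 24 genes were lower in OCI-Ly7 and higher in TMD8, 8 lower in both, 2 higher in both and 3 higher in OCI-Ly7 and lower in TMD8. Of these, 5 genes fell in OCI-Ly7 and rose in TMD8 with both changes past the threshold: ADSL, ADSS, UMPS, RRM2 and DCTPP1. Only DCTPP1 kept both calls on FPKM as given, and ADSL and DCTPP1 did with an equal sum. None of the 37 genes fell in both lines past the threshold or rose in both. Pairs of signs or calls were not counted over all genes on any scale, so these counts only describe the 37 genes.

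Leaving out any 1 of the 12 libraries left between 20 and 25 genes with a negative difference. This count was steadier than either count within a line. The same held over all genes, so the steadiness is not particular to these genes. Without a library, 1173 to 1854 of all genes had a negative difference, against 1838 with every library. In OCI-Ly7 11 to 112 of all genes fell at day 6, against 887, and in TMD8 238 to 1389 rose, against 1612. On FPKM as given the difference was negative for 10 of the genes described here, where 6.30% of all genes were, and positive for 3, where 18.4% were. All 10 were among the 24: PPAT, ADSL, ADSS, UMPS, NME1, RRM2, DTYMK, DCK, DCTPP1 and MTHFD1L. On that scale 26 genes were lower in both lines by sign, and 9 were lower in OCI-Ly7 and higher in TMD8.

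**Figure D2:**
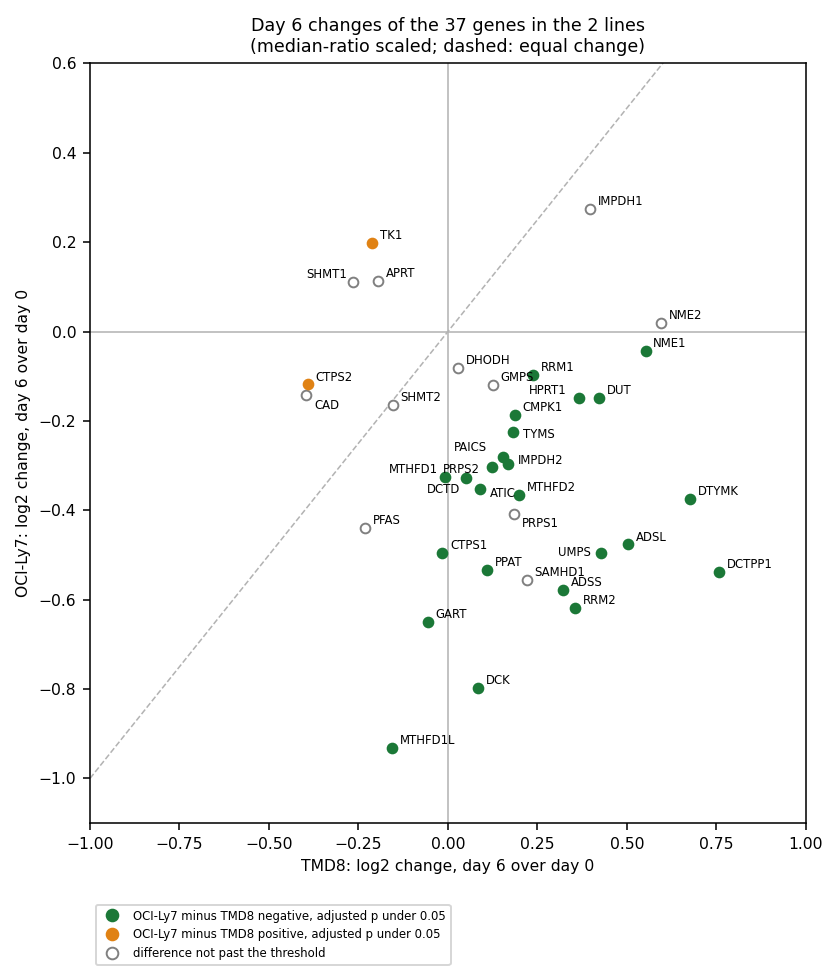
Day 6 log2 change of each of the 37 genes in OCI-Ly7 (y axis) against that in TMD8 (x axis), both from scaled FPKM + 1. Filled green points (24 genes) have a negative and filled orange points (2 genes) a positive difference of OCI-Ly7 minus TMD8 past an adjusted p of 0.05; most green points lie below 0 on the y axis and right of 0 on the x axis, with DCTPP1 farthest from the dashed line of equal change.

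Promoter windows of 5 of the genes that fell in OCI-Ly7 are shown because they hold the letters CACGTG, the E-box read by MYC and other helix-loop-helix factors. Each is a window from 250 bases before to 50 bases after a RefSeq start (GRCh38.p14), on the gene's own strand, in lower case with every CACGTG in capitals. PPAT is at chr4:56435566-56435865 (minus strand), ATIC at chr2:215311809-215312108 (plus), DCK at chr4:70993399-70993698 (plus), DCTPP1 at chr16:30429751-30430050 (minus) and MTHFD1L, 1 of its windows, at chr6:150866236-150866535 (plus).
PPAT: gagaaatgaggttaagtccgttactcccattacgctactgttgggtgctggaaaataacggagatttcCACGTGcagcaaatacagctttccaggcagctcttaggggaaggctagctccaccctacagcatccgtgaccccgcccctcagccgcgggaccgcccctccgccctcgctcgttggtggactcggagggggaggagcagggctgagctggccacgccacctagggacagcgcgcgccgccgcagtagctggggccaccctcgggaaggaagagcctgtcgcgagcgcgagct
ATIC: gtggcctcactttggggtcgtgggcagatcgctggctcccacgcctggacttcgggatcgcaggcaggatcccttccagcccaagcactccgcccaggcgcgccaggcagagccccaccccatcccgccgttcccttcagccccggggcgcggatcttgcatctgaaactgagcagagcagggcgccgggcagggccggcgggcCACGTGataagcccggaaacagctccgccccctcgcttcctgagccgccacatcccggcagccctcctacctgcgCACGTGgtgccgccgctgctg
DCK: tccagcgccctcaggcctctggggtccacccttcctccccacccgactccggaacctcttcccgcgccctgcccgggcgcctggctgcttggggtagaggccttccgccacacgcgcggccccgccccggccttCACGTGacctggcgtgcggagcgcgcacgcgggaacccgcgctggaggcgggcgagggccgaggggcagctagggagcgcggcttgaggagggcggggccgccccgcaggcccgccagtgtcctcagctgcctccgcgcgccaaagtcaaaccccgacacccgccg
DCTPP1: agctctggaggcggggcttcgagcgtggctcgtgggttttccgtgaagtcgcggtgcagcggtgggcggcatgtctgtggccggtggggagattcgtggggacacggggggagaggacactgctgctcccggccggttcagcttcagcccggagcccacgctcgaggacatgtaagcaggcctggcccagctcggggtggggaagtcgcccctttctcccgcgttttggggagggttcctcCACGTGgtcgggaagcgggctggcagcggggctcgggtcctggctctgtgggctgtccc
MTHFD1L: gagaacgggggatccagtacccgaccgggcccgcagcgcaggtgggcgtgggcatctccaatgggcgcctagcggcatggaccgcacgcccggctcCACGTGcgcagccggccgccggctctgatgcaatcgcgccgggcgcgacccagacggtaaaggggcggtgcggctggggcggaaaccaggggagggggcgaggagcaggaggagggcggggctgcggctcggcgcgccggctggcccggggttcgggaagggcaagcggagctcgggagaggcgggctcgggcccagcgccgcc

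ATIC holds the E-box at 2 places and the other windows shown at 1. Counted from the RefSeq start of the window shown, the E-box begins 9 bases before it in DCTPP1, 116 bases in DCK and 182 bases in PPAT. Which start the cells used was not tested. A site before a listed start, that of DCTPP1 included, may therefore lie within the transcribed gene. PPAT and PAICS, whose products catalyse the first committed and a later step of purine synthesis, are neighbours transcribed in opposite directions: 1 PAICS window (chr4:56435502-56435801, plus strand) shares 236 bases with that of PPAT, and the E-box lies in the shared stretch.

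RefSeq windows were at hand for 34 of the 37 genes. The E-box, which reads the same on both strands, was in at least 1 window of 9 of them (26.5%), namely PPAT, PAICS, ATIC, DHODH, NME1, DCK, DCTPP1, MTHFD1 and MTHFD1L, and in 8.78% of all 27305 genes with such windows. Counted by window, it was in 21.2% of the windows of these genes and in 7.26% of all 35116 windows. It was present for 7 of the 14 genes that fell in OCI-Ly7 and had a window, and for 2 of the other 20. For TMD8 it was present for 2 of the 10 genes that rose, 0 of the 2 that fell and 7 of the other 22. The letters CCAAT, on either strand, were in windows of 14 of the 34 genes (41.2%; 39.7% of all genes), and TTTCCCGC or TTTGGCGC, which resemble E2F sites, in those of 5 (14.7%; 2.75% of all genes). None of these motifs contains another, and a match describes the letters only. PPAT and PAICS share 1 E-box and count as 2 genes here. The shares over all genes were not limited to genes expressed in these lines.

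PRPP is made by the synthetases PRPS1 and PRPS2, neither of which passed the threshold at day 6 in either line. PRPS1, the more abundant of the pair in both lines by mean FPKM, had 39.2 and 41.6 scaled FPKM at day 0, 35.7 and 37.6 at day 3, then 33.6 and 27.1 at day 6 in OCI-Ly7. In TMD8 the values were 47.9 and 42.9 at day 0, 40.6 and 49.4 at day 3, then 58.4 and 45.8 at day 6. The OCI-Ly7 libraries of day 6 lay below those of day 0, whereas those of TMD8 overlapped between the days. The log2 change of PRPS2 was -0.30 in OCI-Ly7 (adjusted p = 0.0561) and 0.12 in TMD8 (adjusted p = 0.185), and the difference of -0.43 between them passed (adjusted p = 0.0113).

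All 6 enzymes of the route to IMP fell in OCI-Ly7 at day 6, where 8.05% of all genes did. They fell by 0.28 to 0.65 on the log2 scale, with a median of -0.46. In TMD8 only ADSL among them passed, and it rose (15.4% of all genes higher, 13.5% lower). PPAT, which commits PRPP to purine synthesis, had 10.1 and 10.6 scaled FPKM at day 0, 10.3 and 10.7 at day 3, then 6.50 and 7.22 at day 6 in OCI-Ly7. TMD8 libraries gave 19.3 and 18.0 at day 0, 19.4 and 18.2 at day 3, then 19.7 and 20.6 at day 6. The drop in OCI-Ly7 thus lay between days 3 and 6 (day 6 over day 0: -0.53 ± 0.08 SE, adjusted p = 0.0279; day 6 over day 3: -0.55, adjusted p = 0.0356), and the difference from TMD8 was -0.64 (adjusted p = 0.0027).

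GART, a trifunctional enzyme of which 1 activity uses formyl-folate, had 35.4 and 44.3 scaled FPKM at day 0, 34.3 and 36.0 at day 3, then 24.8 and 25.0 at day 6 in OCI-Ly7. Both day 6 libraries lay below every earlier one (-0.65 ± 0.12, adjusted p = 0.0325). In TMD8 GART had 36.5 and 36.5 at day 0, 31.5 and 31.8 at day 3, then 34.1 and 36.1 at day 6, which gave -0.06 (adjusted p = 0.454). PFAS, the next enzyme, had 14.8 and 15.2 at day 0, 14.5 and 13.7 at day 3, then 10.3 and 11.4 at day 6 in OCI-Ly7 (-0.44 ± 0.08, adjusted p = 0.0334). Its libraries of day 6 were also the lower ones in TMD8 (19.1 and 20.4, against 25.0 and 21.8 at day 0; -0.23, adjusted p = 0.0855), and the lines did not differ past the threshold (-0.21, adjusted p = 0.192).

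PAICS, a bifunctional enzyme and the most abundant of the route per transcript length, had 118 and 114 scaled FPKM at day 0, 110.3 and 107 at day 3, then 97.0 and 94.1 at day 6 in OCI-Ly7. In TMD8 it had 144 and 137 at day 0, 136 and 134 at day 3, then 157 and 156 at day 6. The first was a fall (-0.28 ± 0.06, adjusted p = 0.0416), the second missed the threshold (0.15, adjusted p = 0.0812), and the difference was -0.43 (adjusted p = 0.0031).

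ADSL, adenylosuccinate lyase, acts on the route to IMP and again on the way from IMP to AMP. It had 75.6 and 81.6 scaled FPKM at day 0, 68.7 and 75.7 at day 3, then 55.4 and 57.0 at day 6 in OCI-Ly7 (-0.48 ± 0.08, adjusted p = 0.0296). The TMD8 libraries had 84.4 and 90.4 at day 0, 89.4 and 86.6 at day 3, then 126 and 123 at day 6 (0.50 ± 0.06, adjusted p = 0.00702; 0.14 on FPKM as given, adjusted p = 0.0903). Day 3 overlapped day 0 in both lines and day 6 did not, and the difference between the lines was -0.98 ± 0.09 (adjusted p = 0.000568). ATIC, which adds the last carbon and closes the ring, changed by -0.35 in OCI-Ly7 (adjusted p = 0.0386), against 0.09 in TMD8 (adjusted p = 0.274). On FPKM as given, PAICS missed the threshold in OCI-Ly7 (adjusted p = 0.0562) and the other 5 enzymes of the route kept it. With an equal sum 4 of the 6 passed, and PAICS (adjusted p = 0.0518) and PFAS (adjusted p = 0.0589) did not.

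From IMP, ADSS (adenylosuccinate synthase) leads towards AMP, and IMPDH1, IMPDH2 and GMPS lead to GMP. ADSS moved in opposite directions: it had 18.3 and 20.1 scaled FPKM at day 0, 19.9 and 18.9 at day 3, then 13.1 and 11.97 at day 6 in OCI-Ly7. In TMD8 the values were 43.6 and 42.7 at day 0, 45.9 and 44.2 at day 3, then 53.8 and 54.4 at day 6. These were a fall of 0.58 in OCI-Ly7 (adjusted p = 0.0271) and a rise of 0.32 in TMD8 (adjusted p = 0.0123), with a difference of -0.90 ± 0.09 (adjusted p = 0.000655). The TMD8 change on FPKM as given was -0.04 (adjusted p = 0.706).

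IMPDH2, the main IMP dehydrogenase of dividing lymphocytes, had 140.1 and 144 scaled FPKM at day 0, 127 and 121 at day 3, then 122 and 109 at day 6 in OCI-Ly7. TMD8 libraries gave 264 and 275 at day 0, 245 and 259 at day 3, then 300.4 and 305 at day 6. Day 6 was below day 0 in OCI-Ly7 (-0.30, adjusted p = 0.0601) and above it in TMD8 (0.17, adjusted p = 0.0888), and neither passed, while the difference between the lines did (-0.46, adjusted p = 0.00752). Against day 3, IMPDH2 rose in TMD8 (0.26, adjusted p = 0.0494). Its paralog IMPDH1 had 24.7 and 22.4 at day 0, 26.6 and 21.2 at day 3, then 31.9 and 25.7 at day 6 in OCI-Ly7 (0.27, adjusted p = 0.261), and 23.6 and 22.0, 21.7 and 23.3, and 30.2 and 30.6 on the same days in TMD8 (0.40 ± 0.06, adjusted p = 0.013; 0.05 on FPKM as given, adjusted p = 0.663). IMPDH2 made up 79.3% to 86.6% of the summed FPKM of both paralogs in OCI-Ly7 and 90.9% to 92.6% in TMD8. GMPS, GMP synthetase, passed in no comparison at day 6, with changes of -0.12 in OCI-Ly7 and 0.13 in TMD8.

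Purine base salvage returns hypoxanthine and guanine (HPRT1) or adenine (APRT) to nucleotides. HPRT1 had 146 and 144 scaled FPKM at day 0, 156 and 164 at day 3, then 129 and 132 at day 6 in OCI-Ly7. In TMD8 it had 51.0 and 52.9 at day 0, 56.8 and 53.1 at day 3, then 72.7 and 62.2 at day 6. It rose in TMD8 (0.37, adjusted p = 0.0321; 0.01 on FPKM as given, adjusted p = 0.929) and was lower at day 6 than at day 3 in OCI-Ly7 (-0.29, adjusted p = 0.0494), while day 6 over day 0 in OCI-Ly7 gave -0.15 (adjusted p = 0.141). The rise in TMD8 passed in 1 of 6 fits without a library. APRT passed in neither line, with 0.11 in OCI-Ly7 and -0.20 in TMD8.

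The pyrimidine route did not move as a block. CAD, the trifunctional enzyme that opens it, had 18.3 and 18.7 scaled FPKM at day 0, 17.7 and 16.3 at day 3, then 15.6 and 17.7 at day 6 in OCI-Ly7 (-0.14, adjusted p = 0.298). It fell in TMD8, with 25.2 and 22.7 at day 0, 17.6 and 19.5 at day 3, then 16.8 and 19.1 at day 6 (-0.40 ± 0.10, adjusted p = 0.033). The difference between the lines did not pass (0.25, adjusted p = 0.179). DHODH, the mitochondrial enzyme of the route, passed nowhere at day 6, with changes of -0.08 in OCI-Ly7 and 0.03 in TMD8.

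UMPS, which completes uridine monophosphate, was among the least abundant of the genes and moved in opposite directions. It had 8.21 and 9.26 scaled FPKM at day 0, 8.62 and 9.06 at day 3, then 6.33 and 5.50 at day 6 in OCI-Ly7 (-0.49 ± 0.10, adjusted p = 0.0386). The TMD8 libraries had 6.77 and 6.40 at day 0, 7.60 and 7.37 at day 3, then 8.90 and 9.52 at day 6 (0.43 ± 0.07, adjusted p = 0.0117; 0.11 on FPKM as given, adjusted p = 0.39). In both lines the day 6 libraries lay outside the range of the other 4, and the changes differed by -0.92 (adjusted p = 0.00138).

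CTP synthetase has a pair of paralogs, and a different one fell in each line. CTPS1, known for its need in lymphocyte proliferation, had 33.5 and 33.7 scaled FPKM at day 0, 33.1 and 32.7 at day 3, then 22.5 and 24.7 at day 6 in OCI-Ly7 (-0.50 ± 0.07, adjusted p = 0.0271). In TMD8 it lay between 17.2 and 18.2 in all 6 libraries (-0.02, adjusted p = 0.852). CTPS2 had 17.5 and 17.8 at day 0, 18.4 and 17.8 at day 3, then 16.2 and 16.1 at day 6 in OCI-Ly7 (-0.12, adjusted p = 0.228), and 9.87 and 10.6, 10.6 and 9.91, and 7.70 and 7.40 in TMD8 (-0.39 ± 0.07, adjusted p = 0.0145). The differences between the lines went opposite ways, at -0.48 for CTPS1 (adjusted p = 0.00435) and 0.27 for CTPS2 (adjusted p = 0.0346). CTPS1 made up 58.1% and 60.5% of the pair's summed FPKM at day 6 against 65.7% and 65.5% at day 0 in OCI-Ly7, and 69.7% and 70.0% at day 6 against 64.9% and 61.9% at day 0 in TMD8.

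Nucleotide kinases add the further phosphates. NME1, a nucleoside diphosphate kinase and the most abundant of the 37 in OCI-Ly7 at day 0, had 378 and 359 scaled FPKM at day 0, 356 and 374 at day 3, then 352 and 363 at day 6 there (-0.04, adjusted p = 0.654). In TMD8 the values were 262 and 272 at day 0, 253 and 275 at day 3, then 405 and 379 at day 6, a rise at the last step (0.55 ± 0.07, adjusted p = 0.00896). The difference between the lines was -0.60 (adjusted p = 0.00278). Reads of NME1, its neighbour NME2 and the joint transcript NME1-NME2 cannot be assigned with certainty: in TMD8 at day 0, NME2 had 363 and 228 FPKM while the joint row had 31.0 and 174. Summed over the 3 rows, the level was 568 and 529.9 FPKM at day 6 against 665 and 639 at day 0 in OCI-Ly7, and 723 and 696 at day 6 against 708 and 712 at day 0 in TMD8. After scaling the sum rose in TMD8 (0.36, adjusted p = 0.0282) and differed between the lines (-0.46, adjusted p = 0.00951). NME2 alone passed nowhere at day 6 (0.02 in OCI-Ly7, 0.60 in TMD8), nor did the UMP and CMP kinase CMPK1 within a line (-0.19 in OCI-Ly7 and 0.19 in TMD8), though the CMPK1 difference of -0.37 passed (adjusted p = 0.0228).

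Deoxynucleotide supply showed some of the widest gaps between the lines. In the difference 6 of 7 genes were negative past the threshold (19.0% of all genes) and 1 positive (14.1% of all genes). On FPKM as given 3 of the 7 were negative (6.30% of all genes) and 1 positive (18.4%). With an equal sum 3 were negative and 1 positive, against 969 negative and 1898 positive of all 9688 genes. RRM2, the small subunit of ribonucleotide reductase that dividing cells make in S phase, had 158 and 166 scaled FPKM at day 0, 148 and 148 at day 3, then 110.3 and 99.6 at day 6 in OCI-Ly7 (-0.62 ± 0.07, adjusted p = 0.0251). TMD8 libraries gave 30.1 and 26.4 at day 0, 27.1 and 26.3 at day 3, then 35.1 and 37.7 at day 6 (0.36 ± 0.08, adjusted p = 0.0273). That change was 0.0021 on FPKM as given (adjusted p = 0.989) and 0.21 with an equal sum (adjusted p = 0.195), and it passed in 1 of 6 fits without a library. The difference between the changes was -0.97 (adjusted p = 0.000907). The large subunit RRM1 had 76.0 and 83.1 at day 0, 75.1 and 78.6 at day 3, then 75.6 and 72.9 at day 6 in OCI-Ly7 (-0.10, adjusted p = 0.378), and 56.2 and 52.2, 52.6 and 53.1, and 64.5 and 63.5 in TMD8 (0.24, adjusted p = 0.0321; -0.12 on FPKM as given, adjusted p = 0.226). The fall in OCI-Ly7 therefore passed for the small subunit and not for the large one. With an equal sum the change of RRM1 in TMD8 was 0.08 (limma, adjusted p = 0.427). Without single libraries it lay between 0.182 and 0.285 on scaled FPKM.

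Thymidylate is made by TYMS or salvaged through TK1, and DTYMK, thymidylate kinase, phosphorylates it further. DTYMK had 41.1 and 42.2 scaled FPKM at day 0, 38.8 and 36.4 at day 3, then 35.4 and 28.6 at day 6 in OCI-Ly7 (-0.38, adjusted p = 0.0797). In TMD8 it had 51.5 and 49.6 at day 0, 53.7 and 53.6 at day 3, then 82.9 and 79.7 at day 6 (0.68 ± 0.05, adjusted p = 0.00342). The day 6 libraries of TMD8 stood well above all 4 earlier ones, and the difference between the lines was -1.05 ± 0.13 (adjusted p = 0.00114).

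TYMS, thymidylate synthase and the most abundant gene of this group, had 252 and 240.4 scaled FPKM at day 0, 231 and 235 at day 3, then 218 and 204 at day 6 in OCI-Ly7. The TMD8 libraries had 118 and 101 at day 0, 95.7 and 88.6 at day 3, then 129 and 119 at day 6. Neither change at day 6 passed (-0.23, adjusted p = 0.0733, in OCI-Ly7; 0.18, adjusted p = 0.197, in TMD8), and the difference did (-0.41, adjusted p = 0.0312). TK1, thymidine kinase, was the exception of the group: its difference was 0.41 (adjusted p = 0.0384), with 87.8 and 76.7 at day 6 against 70.5 and 72.3 at day 0 in OCI-Ly7 and 50.05 and 50.2 at day 6 against 58.8 and 57.6 at day 0 in TMD8.

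DCK, the kinase that salvages deoxycytidine and activates several nucleoside drugs, had 27.1 and 30.0 scaled FPKM at day 0, 27.4 and 29.8 at day 3, then 17.0 and 15.0 at day 6 in OCI-Ly7. In TMD8 the values were 23.4 and 24.6 at day 0, 25.5 and 21.0 at day 3, then 25.5 and 25.5 at day 6. OCI-Ly7 kept its level to day 3 and then fell (day 6 over day 0: -0.80 ± 0.10, adjusted p = 0.0251), and TMD8 did not move past the threshold (0.08, adjusted p = 0.542). The changes differed by -0.88 (adjusted p = 0.00346). DCTD, deoxycytidylate deaminase, had 25.5 and 23.4 at day 0, 23.0 and 23.9 at day 3, then 19.1 and 19.4 at day 6 in OCI-Ly7 (-0.33, adjusted p = 0.0452), against 0.05 in TMD8 (adjusted p = 0.45).

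**Figure D3:**
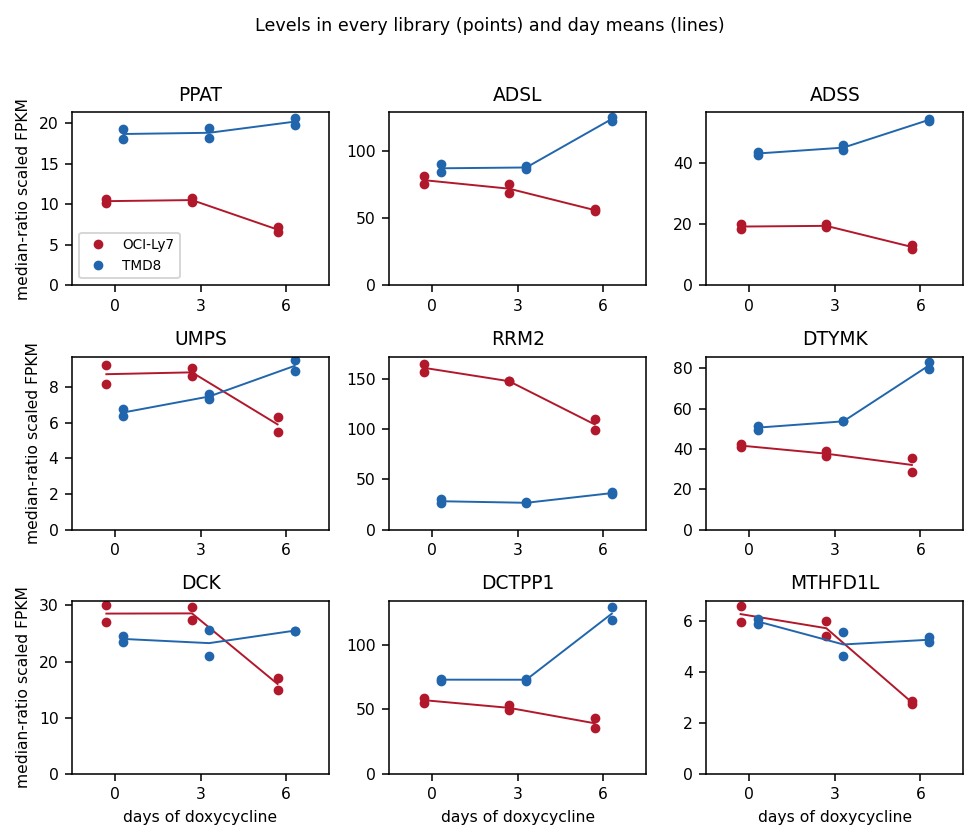
Scaled FPKM (y axis, from 0) of 9 genes over 0, 3 and 6 days of doxycycline (x axis) in OCI-Ly7 (red, left of each day) and TMD8 (blue, right). Points are single libraries and lines join the means of 2; in OCI-Ly7 the day 6 points of all 9 lie below those of day 0, and for ADSL, DTYMK and DCTPP1 the TMD8 points lie above 75 scaled FPKM at day 6.

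DCTPP1, DUT and SAMHD1 break down deoxynucleotide triphosphates. DCTPP1, a pyrophosphatase that clears dCTP and modified forms of it, had the largest difference of all 37 genes. It had 55.1 and 59.1 scaled FPKM at day 0, 49.3 and 53.0 at day 3, then 42.9 and 35.4 at day 6 in OCI-Ly7 (-0.54 ± 0.11, adjusted p = 0.0402). TMD8 libraries gave 73.8 and 72.1 at day 0, 73.6 and 72.2 at day 3, then 119 and 129 at day 6 (0.76 ± 0.06, adjusted p = 0.00342). The difference was -1.30 ± 0.13 (adjusted p = 0.000603) and -1.09 on FPKM as given (adjusted p = 0.00483).

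DUT, which keeps uracil out of DNA by hydrolysing dUTP, had 104 and 98.8 scaled FPKM at day 0, 97.8 and 104 at day 3, then 101 and 82.3 at day 6 in OCI-Ly7, where the days overlapped (-0.15, adjusted p = 0.382). In TMD8 it had 41.8 and 40.0 at day 0, 44.6 and 41.8 at day 3, then 55.6 and 54.6 at day 6 (0.42 ± 0.06, adjusted p = 0.00954; 0.07 on FPKM as given, adjusted p = 0.508). SAMHD1, which degrades deoxynucleotides outside S phase, was the least abundant of the 37 in OCI-Ly7, with 2.51 and 2.10 at day 6 against 3.22 and 4.58 at day 0 (-0.56, adjusted p = 0.134), and 13.1 and 15.2 at day 6 against 12.8 and 11.2 at day 0 in TMD8 (0.22, adjusted p = 0.171).

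In the folate group 2 of 5 genes fell in OCI-Ly7 at day 6 (8.05% of all genes). In TMD8 0 of the 5 passed (15.4% of all genes higher, 13.5% lower). At an unadjusted p under 0.05 limma gave 2 of the 5 there, against 4541 of all 10456 genes. MTHFD1L, which releases formate from mitochondria for cytosolic use, had the largest fall of all 37 genes: 5.96 and 6.60 scaled FPKM at day 0, 5.43 and 6.02 at day 3, then 2.76 and 2.86 at day 6 in OCI-Ly7 (-0.93 ± 0.09, adjusted p = 0.0235). The TMD8 libraries had 5.91 and 6.08 at day 0, 4.62 and 5.56 at day 3, then 5.17 and 5.37 at day 6 (-0.16, adjusted p = 0.239). Both day 6 libraries of OCI-Ly7 lay below all its earlier ones, and the difference between the lines was -0.78 (adjusted p = 0.00346).

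MTHFD1, the trifunctional cytosolic enzyme that takes up formate, had 70.3 and 76.8 scaled FPKM at day 0, 73.5 and 68.0 at day 3, then 58.8 and 57.9 at day 6 in OCI-Ly7 (-0.33, adjusted p = 0.0488, and 0.0628 on FPKM as given), against -0.01 in TMD8 (adjusted p = 0.937). SHMT2, the mitochondrial serine hydroxymethyltransferase and close to MTHFD2 in mean FPKM over the 6 OCI-Ly7 libraries (168 and 167), had 171 and 189 at day 0, 161 and 159 at day 3, then 169 and 152 at day 6 there, and 101 and 101, 77.3 and 87.2, and 94.2 and 86.6 in TMD8. Its changes at day 6 were nearly equal, at -0.16 in OCI-Ly7 (adjusted p = 0.229) and -0.15 in TMD8 (adjusted p = 0.187). Its cytosolic paralog SHMT1 had 0.11 in OCI-Ly7 (adjusted p = 0.364) and -0.27 in TMD8 (adjusted p = 0.108). MTHFD2, the mitochondrial dehydrogenase upstream of MTHFD1L and the gene of the group with the highest mean over both lines, had 175 and 188 scaled FPKM at day 0, 173 and 178 at day 3, then 153 and 129 at day 6 in OCI-Ly7 (-0.37, adjusted p = 0.0648). In TMD8 the values were 128 and 135 at day 0, 139.8 and 126 at day 3, then 151 and 150.1 at day 6 (0.20, adjusted p = 0.0846). Day 6 lay below day 0 in OCI-Ly7 and above it in TMD8, and the difference of -0.57 passed (adjusted p = 0.0112).

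More genes passed between days 3 and 6 than between days 0 and 3. On scaled FPKM the median log2 change of the 37 genes at day 3 was -0.06 in OCI-Ly7 and -0.02 in TMD8. From day 3 to day 6 it was -0.27 and 0.14. CAD in TMD8 was already at -0.35 by day 3 (limma, adjusted p = 0.248). It moved by -0.04 from day 3 to day 6 (adjusted p = 0.773). The median of the folate genes in TMD8 was -0.20 at day 3 and -0.15 at day 6. At day 3 against day 0, 0 of the 37 genes passed in either direction in either line. Among all genes, 0.0545% were lower and 0.0635% higher in OCI-Ly7 and 0.0765% lower and 0.143% higher in TMD8, and at an unadjusted p under 0.05 limma gave 1 lower gene of the 37 in OCI-Ly7 and 5 in TMD8, and none higher. In TMD8 29 of the 37 were lower at day 3 on FPKM as given, where 41.5% of all genes were lower and 1.50% higher. Between days 3 and 6, 9 genes (24.3%) fell in OCI-Ly7 (4.52% of all genes lower, 4.23% higher) and 11 rose and 1 fell in TMD8 (6.56% higher, 5.10% lower). The 9 were PPAT, ATIC, ADSS, HPRT1, UMPS, CTPS1, RRM2, DCK and MTHFD1L, and the 1 in TMD8 was CTPS2. With 1 library of the line left out, the median change of the 37 genes from day 3 to day 6 lay between -0.29 and -0.18 in OCI-Ly7. In TMD8 it lay between 0.14 and 0.19. Fewer genes passed in these fits, among the 37 and among all genes alike. The day 6 libraries enter the comparison with day 3 and that with day 0, so the counts are not independent.

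**Figure D4:**
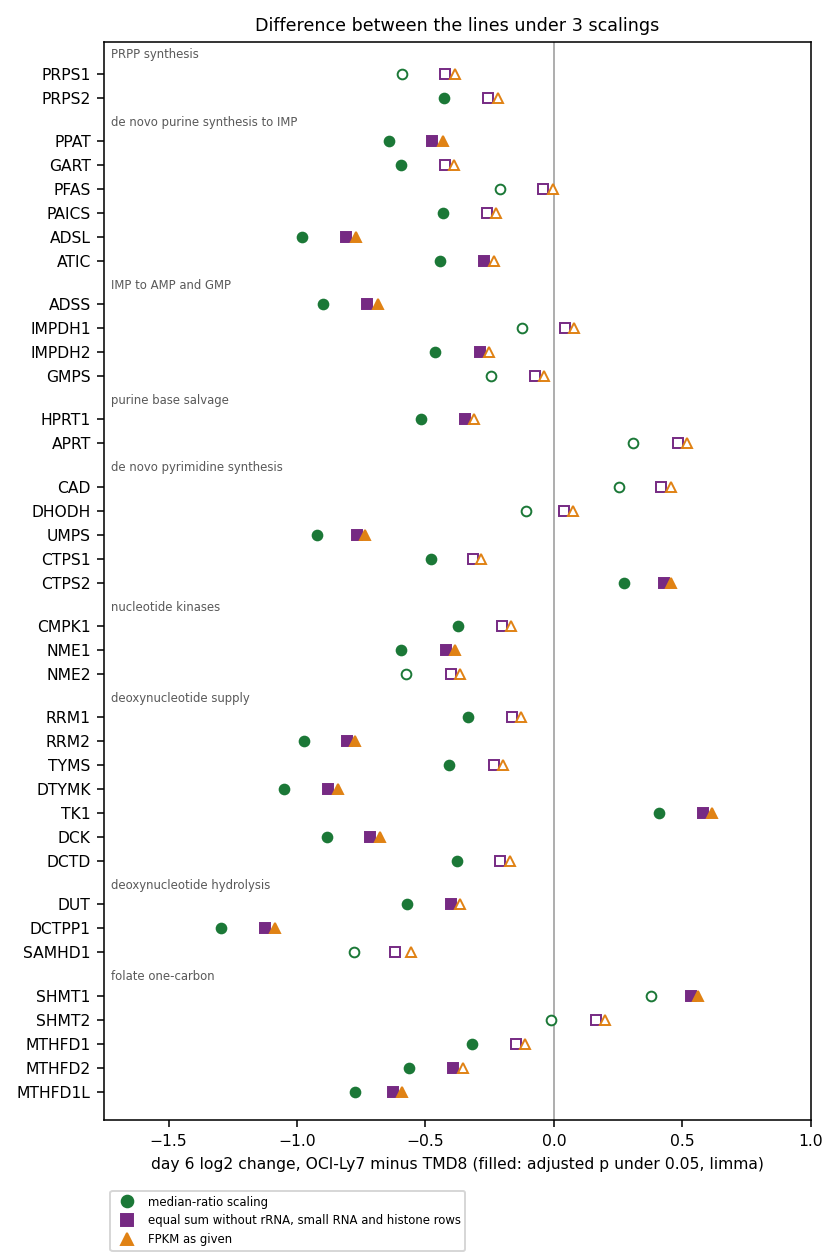
Day 6 log2 change in OCI-Ly7 minus that in TMD8 (x axis) for the 37 genes (y axis, by role) under 3 scalings: median ratio (circles), equal sum without ribosomal RNA, small RNA and histone rows (squares) and FPKM as given (triangles). Filled marks have an adjusted p under 0.05; 24 circles and 10 triangles are filled left of 0, with the triangles to the right of the circles for each gene.

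Another 64 genes of the same routes were listed, of which 50 in each line reached a mean of 1 FPKM. In OCI-Ly7 12 fell (24.0%, against 8.05% of all genes) and 3 rose (6.00%, against 6.71%) at day 6. In TMD8 10 rose (20.0%, against 15.4%) and 7 fell (14.0%, against 13.5%). The median change was -0.04 in OCI-Ly7 and 0.08 in TMD8. The largest falls in OCI-Ly7 were those of the serine synthesis enzyme PSAT1 (-1.02), the S-adenosylmethionine synthetase MAT2A (-0.93) and the purine nucleoside phosphorylase PNP (-0.75), and the largest rises those of the mitochondrial thymidine kinase TK2 (0.47), the AMP deaminase AMPD2 (0.44) and the oxidised nucleotide hydrolase NUDT1 (0.43). In TMD8 the inosine triphosphatase ITPA (0.65), the AMP deaminase AMPD3 (0.48) and the nucleotidase NT5C3B (0.42) rose most, and the mitochondrial nucleotidase NT5M (-0.98), the serine synthesis enzyme PHGDH (-0.64) and the folate polyglutamate synthase FPGS (-0.62) fell most. Of 47 such genes tested in both lines, the difference of OCI-Ly7 minus TMD8 was negative for 18 (38.3%, against 19.0% of all genes) and positive for 4 (8.51%, against 14.1%). That balance turned round with the scaling, to 5 negative and 8 positive on FPKM as given, where 6.30% of all genes were negative and 18.4% positive. With an equal sum it was 7 negative and 11 positive, against 969 negative and 1898 positive of all 9688 genes. The balance of all genes thus turned the same way. On FPKM as given, 12 fell and 0 rose in OCI-Ly7 at day 6, where 9.39% of all genes were lower and 1.98% higher. In TMD8 24 of the 50 fell and 0 rose, where 51.7% of all genes were lower and 3.89% higher. The share of falls in TMD8 was thus no higher than that of all genes.

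Some of the 37 genes share exons with others on the genome, which the authors' counting may not separate. In GENCODE v29 17 of them overlap another gene. ENOSF1, on the opposite strand, overlaps 58.2% of the exon bases of TYMS and averaged 1.85 FPKM in OCI-Ly7 and 4.92 in TMD8, against 231 and 109 FPKM for TYMS. ZNF771 overlaps 42.1% of those of DCTPP1 and averaged 0.515 FPKM in OCI-Ly7 and 0.697 in TMD8, against 49.5 and 89.0 FPKM for DCTPP1. SLC4A5 overlaps 29.7% of those of MTHFD2, with 6.78 and 4.72 FPKM in the 2 lines. ADSL and RRM2 each overlap a readthrough gene on their own strand that has no row under its GENCODE name in the tables.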

How the data were processed

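Human diffuse large B cell lymphoma lines were sequenced as bulk RNA at 3 times of guide induction. The authors deposited FPKM values per library, in 1 table per line keyed by gene symbol; per the submitters' processing notes HISAT, StringTie and hg19 were used, whose roles and versions the sources used here do not give. All value columns were matched to a sample by name, and 0 were left without one. Since FPKM are not counts and depth is unknown, no count test was run. Each library was divided by the median, over genes above 0 in every library and with a mean of at least 1 FPKM, of its ratio to the gene's geometric mean in that line.

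Differences were tested using limma (version 3.58.1, R 4.3.3), fitted to log2(scaled FPKM + 1), with day as a factor, a mean-dependent trend and Benjamini-Hochberg adjustment over genes with a mean of at least 1 FPKM (11016 in OCI-Ly7, 10456 in TMD8, 9688 for the difference between lines). The threshold was 0.05. Each line's fit has 3 residual degrees of freedom, and the joint fit 6. The pseudocount of 1 shrinks changes of low genes. The script was tested on simulated data. Alternatives were FPKM as given, an equal sum without ribosomal RNA, small RNA and histone rows, a pseudocount of 0.1, no filter, a minimum of 5 FPKM, the replicate number as a block and each library left out. A sum of the NME1, NME2 and NME1-NME2 rows was added after the data were seen.

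Libraries with the same number correlated in their deviations from the group means at -0.08 to 0.13 in OCI-Ly7 and at -0.15 to 0.08 in TMD8, so the numbers were not taken as pairs. Members, lists, tests and the naming rule were chosen with earlier results of these data known. Values in every library are given for genes past the threshold at day 6 with libraries that do not overlap (up to 4 per role and line), for the most abundant gene of each role and for up to 6 genes with the largest difference between lines; some further genes were given so for comparison. Promoter windows are from RefSeq (GRCh38.p14), and exon overlap is from GENCODE v29, whose build differs from that of the files. Values of some genes are not reported here.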

Additional observations from a re-analysis of the deposited data

Results flagged for a closer look

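The day 6 change differed between the lines for 26 of the 37 genes by a direct test of the difference (OCI-Ly7 minus TMD8, log2, limma, adjusted p under 0.05). In the route to IMP the differences were -0.64 for PPAT, -0.59 for GART, -0.43 for PAICS, -0.98 for ADSL and -0.44 for ATIC. Elsewhere among the purine genes they were -0.43 for PRPS2, -0.90 for ADSS, -0.46 for IMPDH2 and -0.52 for HPRT1. Among pyrimidine and kinase genes they were -0.92 for UMPS, -0.48 for CTPS1, 0.27 for CTPS2, -0.37 for CMPK1 and -0.60 for NME1. Among the deoxynucleotide genes they were -0.33 for RRM1, -0.97 for RRM2, -0.41 for TYMS, -1.05 for DTYMK, 0.41 for TK1, -0.88 for DCK, -0.38 for DCTD, -0.57 for DUT and -1.30 for DCTPP1. In the folate group they were -0.32 for MTHFD1, -0.57 for MTHFD2 and -0.78 for MTHFD1L. The PRMT5 transcript differed the same way (-0.98, adjusted p = 0.00311), and its part in these differences was not tested. The estimated relative depth was lower at day 6 than at day 0 in both lines, and its part was not tested either.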

How the results depend on the processing

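With 2 libraries per group, counts within a line depend on single libraries more than directions do. After scaling, 0 genes passed at day 3, 11 were higher and 2 lower in TMD8 at day 6, 11 higher and 1 lower there at day 6 against day 3, 15 and 9 lower in OCI-Ly7 at day 6 against days 0 and 3, and 24 differences were negative and 2 positive. On FPKM as given, 29 genes were lower in TMD8 at day 3 (0 after scaling), 3 were higher and 15 lower at day 6, and 4 were higher and 1 lower at day 6 against day 3; in OCI-Ly7 0 were lower at day 6 against day 3, and in the difference 10 were negative. With an equal sum without ribosomal RNA, small RNA and histone rows, 4 were higher and 7 lower in TMD8 at day 6, 4 were higher at day 6 against day 3, and 15 differences were negative. Without the filter, 1 was lower in TMD8 at day 6 and 7 were higher at day 6 against day 3. With the replicate block, 1 was lower in TMD8 at day 6, 2 were higher and 0 lower there at day 6 against day 3, 8 and 0 were lower in OCI-Ly7 at day 6 against days 0 and 3, and 1 difference was positive; the numbers are not shown to pair libraries.

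Over all genes, TMD8 had 1612 higher and 1409 lower at day 6 after scaling, 407 and 5409 on FPKM as given, 758 and 2337 with an equal sum and 1000 and 805 with the replicate block. OCI-Ly7 had 739 and 887 after scaling, 218 and 1034 as given, 457 and 539 without the filter and 386 and 343 with the block. Among differences 1369 were positive and 1838 negative after scaling, 1786 and 610 as given, 1898 and 969 with an equal sum, and 709 and 1695 with a minimum of 5 FPKM.

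With each library left out, TMD8 had 3 to 10 genes higher and 0 to 2 lower at day 6, and 0 to 4 higher and 0 lower against day 3. OCI-Ly7 had 0 to 2 lower at day 6 and 0 against day 3, when among all genes 13 to 142 were higher and 11 to 112 lower at day 6; the positive differences numbered 0 to 3 and the negative ones 20 to 25. Within each line, fewer of all genes passed at day 6 in these fits too. None of the called members changed sign without a library. Without scaling ADSS (-0.036) and RRM1 (-0.12) changed sign in TMD8 at day 6. With the NME rows summed, the sum had 0.013 in TMD8 at day 3, where NME1 alone was negative, and -0.058 and -0.095 in OCI-Ly7 at days 3 and 6, where NME2 alone was positive; the cause of these changes was not tested. Depth limits the low genes most: SAMHD1, MTHFD1L and DHODH had the lowest levels in OCI-Ly7.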

Other observations

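Among the 47 other genes of these routes tested in both lines, the largest negative differences of OCI-Ly7 minus TMD8 at day 6 past the threshold were those of PNP, which splits purine nucleosides for salvage (-1.14, adjusted p = 0.000501), and AHCY, which hydrolyses S-adenosylhomocysteine, the product of methyltransferases such as PRMT5 (-1.07, adjusted p = 0.00103). As given, PNP had 24.0 and 24.8 FPKM at day 6 against 43.7 and 49.1 at day 0 in OCI-Ly7, and 79.0 and 81.7 at day 6 against 79.2 and 78.1 at day 0 in TMD8. MAT2A, which makes S-adenosylmethionine, differed by -0.89 (adjusted p = 0.00867, and 0.0553 on FPKM as given). Positive differences past the threshold included those of the nucleotidase NT5C (0.84), the AMP deaminase AMPD2 (0.52) and the methionine synthase MTR (0.44), each past the threshold on FPKM as given too. Of the 4 positive differences past the threshold, that of another folate and one-carbon gene (0.53, past the threshold on both scales) is not named here. PNP and AHCY were picked by the size of their difference, and all these values describe the genes only.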
